A study of Rattus norvegicus with 6 samples.

Results

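A pair of neighbouring loci on rat chromosome 1, XLOC_007496 and XLOC_007498, were described across 6 tissues. They hold 5 of the 2455 long non-coding RNA (lncRNA) transcripts with values in the table, and 2 of its 1646 loci. The members were all 4 rows of XLOC_007496 and every other row with no reference gene in a window from 80.1 kb before to 108 kb after it, which added TCONS_00012470 of XLOC_007498. XLOC_007496 was selected on its high FPKM (fragments per kilobase of transcript, scaled to the fragments mapped) in these same columns, so its abundance is a description with no test. Coordinates are those of build rn5. RNA came from adrenal gland, left ventricle, outer medulla, cortex, liver and hypothalamus of male Brown Norway rats (BN, an inbred strain) aged 6 weeks. There was 1 sample per tissue, and no group was treated. The table gave 2 FPKM columns per tissue, called column 1 and column 2 here, and values printed in pairs follow that sequence. Nothing in the labels tells whether 2 columns stand for 2 animals, so n = 2 below counts columns and a p measures the spread of columns alone, which may be technical. The cortex label names no organ, and the hypothalamus columns, coded B, were identified by reading B as brain and as those left once the other 5 tissues had theirs.

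The working name of the region places it near Malat1. In mammals, Malat1 and its neighbour Neat1 are long RNAs that stay in the nucleus. Malat1 RNA collects in nuclear speckles, which hold splicing factors, and the long form of Neat1 RNA is the scaffold of paraspeckles. Of 17 genes listed for the Malat1 neighbourhood, 0 had a row under their name in the table. Rows with no reference gene, the members among them, carry no gene name, so RNAs of these genes may still be present. The place of the loci relative to Malat1 was therefore not tested, and they are called by their identifiers. The nearest rows on the low side lay 312 kb away (ENSRNOG00000046560, 227749933 to 227768383) and 364 kb away (antisense to an exon of TSGA10IP, 227700575 to 227715984). On the high side the next row was ENSRNOG00000021123 (229132904 to 229133318), 996 kb away. These 3 rows were weak, with highest FPKM values of 1.27, 0.68 and 0.344.

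All 5 transcripts were long and filled most of the genomic interval of their locus. XLOC_007496 spans bases 228080092 to 228091758. Its transcript TCONS_00012467 is 11142 bases long, which is 95.5% of that span. TCONS_00012468 is 11025 bases (94.5%), TCONS_00012465 is 10552 bases (90.5%) and TCONS_00012464 is 9418 bases (80.7%). The table assigns TCONS_00012464 and TCONS_00012465 to start site TSS9630 and the remaining 2 to TSS9632. XLOC_007498 lies 22803 bases further along, at bases 228114561 to 228137221, and its single transcript of 22514 bases covers 99.4% of the span. The span of the locus exceeded the transcript by 146 bases for TCONS_00012470, and by 524 (TCONS_00012467) to 2248 bases (TCONS_00012464) in XLOC_007496. Exon positions and strand are not given in the table, so how much of this is intron is not known. Across the table the median length was 1758 bases and the median transcript covered 13% of its locus. Transcripts of 9 kb or more made up 8.19% (201), and 42 of these covered at least 80% of their span.

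Among these long transcripts, 3 of the members had the highest mean FPKM over the 12 columns. TCONS_00012467 averaged 772, TCONS_00012465 averaged 153 and TCONS_00012470 averaged 33.0. The other 196 transcripts of 9 kb or more had a median of 0.36 and reached at most 10.04. TCONS_00012464 (0.551) and TCONS_00012468 (0.17) lay near that median. High FPKM elsewhere belonged to short transcripts. The 3 most abundant outside the locus were TCONS_00032703 (653 bases, mean over tissues 683, with 7 of 12 columns at 0 and 3416 in the highest), TCONS_00015674 (267 bases, 561) and TCONS_00058886 (470 bases, 148, with 1217 in its highest column).

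**Figure D1:**
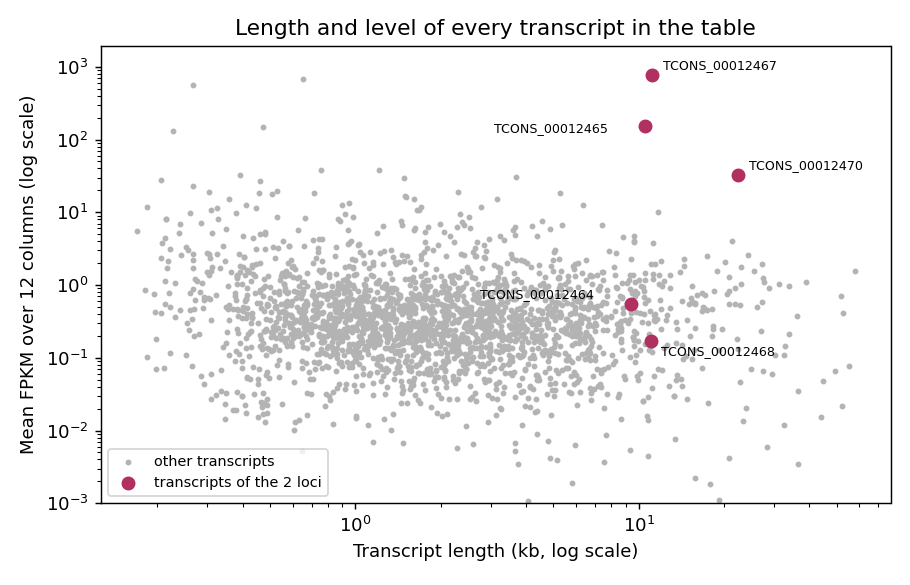
Mean FPKM over 12 columns (vertical axis, log scale) against transcript length in kb (horizontal axis, log scale), with grey points for other transcripts, red points for the 5 transcripts of the 2 loci, and 6 transcripts below 0.001 out of view. TCONS_00012467, TCONS_00012465 and TCONS_00012470, at 772, 153 and 33.0, stand above every other transcript of 9 kb or more.

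Because FPKM divides by length, the weight of these loci in the libraries is larger than their FPKM shows. XLOC_007496 held between 8.41% (hypothalamus column 2) and 32.9% (outer medulla column 2) of the summed FPKM of a column. Weighted by transcript length, which approximates the share of the table's fragments, it held between 40.4% (hypothalamus column 2) and 69.5% (left ventricle column 1). By this weight it was the first locus in all 12 columns. XLOC_007498, whose abundance played no part in the choice, was second in 9 of 12 columns and ranked 3, 4 and 5 in cortex column 1 and hypothalamus columns 1 and 2, with 2.58 to 5.58% of the weight.

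If FPKM was scaled by all mapped fragments, as its definition has it, the locus XLOC_007496 took 1.56% and 1.23% of them in adrenal gland. It took 1.34% and 1.26% in left ventricle, 1.13% and 1.16% in outer medulla, and 1.06% and 1.01% in cortex. In liver the values were 0.742% and 1.02%, and in hypothalamus 0.417% and 0.333%. The locus took over 1% in 9 of 12 columns. XLOC_007498 took between 0.0213% (hypothalamus column 2) and 0.133% (liver column 2).

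The steps between low FPKM values, with an assumed fragment of 140 bases, gave depths between 3875000 fragments (liver column 2) and 31850000 (hypothalamus column 2). Between 81.8% and 91.7% of the values used lay within 0.15 of a whole fragment. TCONS_00012467 then rested on 22400 (liver column 2) to 183000 fragments (adrenal gland column 1), so counting error was small for it. Rows at marker genes were few. They are lncRNA rows, so they do not give the levels of the marker mRNAs. Rows at 4 of 5 liver, 1 of 1 kidney, 1 of 1 adrenal and 4 of 4 brain genes had their highest mean in the tissue named. The liver exception, at Fga, was at 0 in both liver columns and at 1.42 and 1.16 in adrenal gland. For left ventricle, 0 of 8 markers had a row. The kidney row was at Slc12a1, the gene of the salt transporter of the thick ascending limb. It had 36.5 and 36.6 in outer medulla and 12.2 and 14.7 in cortex.

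TCONS_00012467, the main transcript of XLOC_007496, was at 279 FPKM or more in all 12 columns. It had 1231 and 916 in adrenal gland, 1112 and 953 in left ventricle, and 833 and 837 in outer medulla. Cortex had 851 and 774, liver 607 and 525, and hypothalamus 352 and 279. In order of the means, the columns of left ventricle overlapped those of adrenal gland, and those of outer medulla overlapped those of cortex. Liver lay below these 4 tissues without overlap, and hypothalamus below liver. The highest tissue mean was 3.40 times the lowest.

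TCONS_00012465, the main transcript from the other start site, had a different order. It had 62.1 and 415 in liver, a 6.68-fold difference between columns of 1 tissue. Outer medulla had 185 and 212, adrenal gland 181 and 201, left ventricle 98.6 and 190, and cortex 105 and 138. Only hypothalamus, at 22.7 and 21.0, lay apart from its neighbour in the order, and the columns of each other neighbouring pair overlapped.

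TCONS_00012470 of XLOC_007498 was highest in liver (40.2 and 59.2) and adrenal gland (53.8 and 44.7), whose columns overlapped. Left ventricle had 34.3 and 32.4, outer medulla 28.1 and 28.9, cortex 26.2 in both columns, and hypothalamus 11.998 and 9.44. Each of these 4 tissues lay below the one before it without overlap. Liver, the fifth of 6 tissues for TCONS_00012467, was thus level with the top for TCONS_00012470.

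The remaining transcripts of XLOC_007496 were rare. TCONS_00012464 reached 1.31 and 1.09 in adrenal gland, and 1.04 and 0.842 in outer medulla. It had 0.267 and 0.683 in left ventricle, 0.616 and 0.106 in cortex, 0.253 and 0.259 in hypothalamus, and 0.147 and a listed 0 in liver. TCONS_00012468 had 0.442 and 0.518 in outer medulla, 0.477 and 0.173 in cortex, and 0.185 and 0.0892 in hypothalamus. The table listed it at 0 in liver and left ventricle, in both columns of each, and in adrenal gland column 1, with 0.155 in adrenal gland column 2. Taking 3 fragments as the limit of a count of 0, which covers counting error only, a listed 0 allowed this transcript up to 0.0711 FPKM in liver column 2 and 0.0204 in adrenal gland column 1. Such a 0 can also be a failed estimate. The nonzero values of TCONS_00012468 corresponded to 28.1 to 103 fragments beside at least 97700 for TCONS_00012467 in the same columns, so they depend on how fragments shared by nearly identical transcripts were divided.

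**Figure D2:**
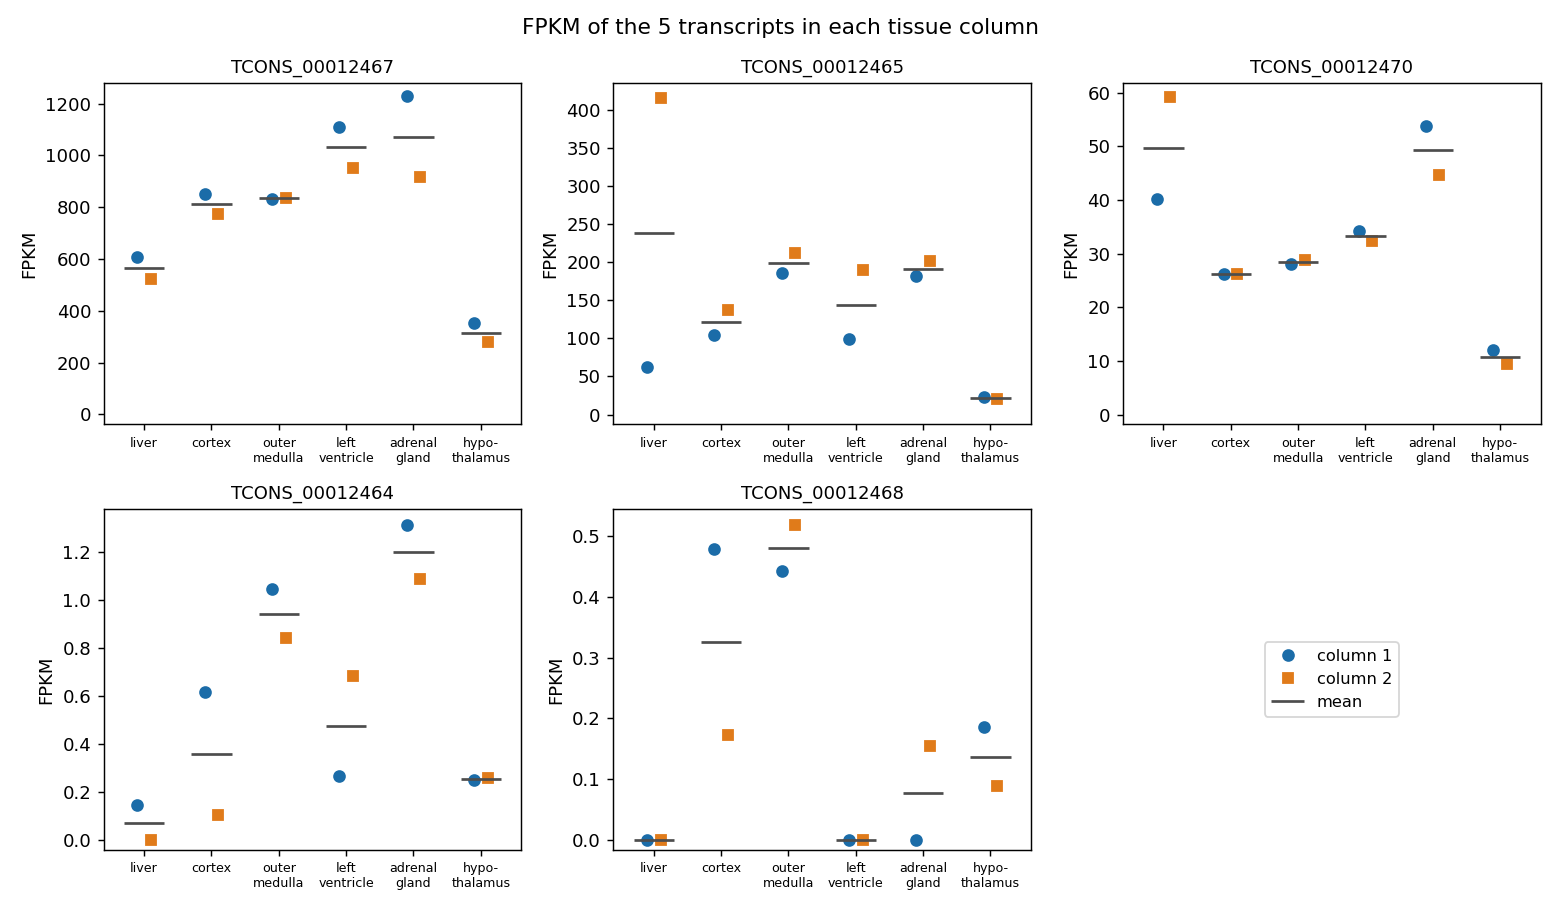
FPKM (vertical axes, one scale per panel) of the 5 transcripts in each tissue, with circles for column 1, squares for column 2 and a bar for their mean. TCONS_00012467 runs from 279 to 1231, and the largest gap between columns is that of TCONS_00012465 in liver, 62.1 against 415.

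Whether the loci differed between tissues was tested with limma on log2(FPKM + 0.1) of sums per locus, for 1052 loci and all 15 pairs of tissues, with Benjamini-Hochberg adjustment within each pair. Of the 15 pairs, 6 were called for XLOC_007496 and 9 for XLOC_007498 at an adjusted p below 0.05, while 42.5% of all tests over loci and pairs were called. The sum of XLOC_007496 was 338 ± 53.1 in hypothalamus (SD, n = 2) and 804 ± 191 in liver, 934 ± 31.2 in cortex, 1035 ± 21.5 in outer medulla, 1177 ± 47.4 in left ventricle and 1266 ± 208 in adrenal gland.

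As deposited, both loci were lower in hypothalamus than in each of the other 5 tissues. XLOC_007496 was lower by a log2 difference of 1.24 against liver (2.36-fold, SE 0.20, adjusted p = 0.00088, limma) to 1.90 against adrenal gland (3.75-fold, adjusted p = 0.00049). XLOC_007498 was lower by 1.29 against cortex (2.45-fold, SE 0.23, adjusted p = 0.0013) to 2.19 against adrenal gland (4.57-fold, adjusted p = 0.00043). Over all loci, 32.1% of tests in these 5 pairs called hypothalamus lower, and 55 of 1052 loci (5.23%) were lower in all 5.

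This depended on the scale of the hypothalamus columns. Over 504 loci above 0 in every column, the median in hypothalamus was lower than in the other tissues by 0.90 (liver) to 1.22 (outer medulla) on the log2 scale. Relative to that shift, by rescaling each column to the same median, XLOC_007496 was called lower in hypothalamus in 2 of 5 pairs, where 21.2% of such tests over loci were called. These were the pairs with adrenal gland (log2 difference 0.85, adjusted p = 0.00996, limma) and left ventricle (0.82, adjusted p = 0.0094), while the differences from liver, cortex and outer medulla were 0.34, 0.30 and 0.40 (adjusted p = 0.19, 0.25 and 0.13). XLOC_007498 was called lower in 3 of 5, against liver (1.29), adrenal gland (1.15) and left ventricle (0.65, adjusted p = 0.046). Which scale fits these tissues was not tested.

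Marker rows of a tissue were also above 0 in columns of others. The row at Cyp11b3, an adrenal steroid enzyme gene, had 60.5 and 44.4 in adrenal gland, against 5.89 and 1.21 in hypothalamus. It had 2.10 in liver column 2 and 2.18 in left ventricle column 2. The rows at Sox2, a neural transcription factor gene, summed to 5.50 and 6.56 in hypothalamus and were at 0 and 1.10 in adrenal gland. Hypothalamus column 1 and adrenal gland column 2 were both removed, a choice made after the values were seen, with the other columns as deposited and not rescaled. XLOC_007496 was then lower in hypothalamus by a log2 difference of 1.40 (liver) to 2.23 (adrenal gland). XLOC_007498 was lower by 1.46 (cortex) to 2.50 (adrenal gland). Adrenal gland and hypothalamus then had 1 column each, which a test assumes to vary like the columns of the other 4 tissues. The part of such signal in the differences was not tested.

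**Figure D3:**
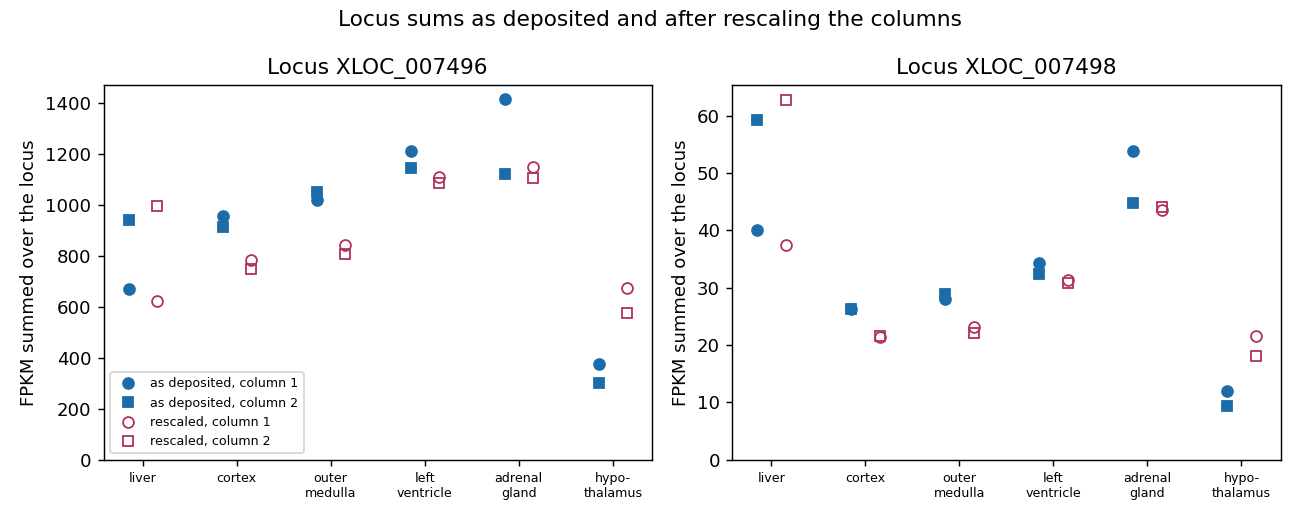
FPKM summed over each locus (vertical axes) by tissue, with filled blue symbols as deposited and open red symbols after each column was rescaled to the same median over loci above 0 in every column; circles are column 1 and squares column 2. In hypothalamus the sums of XLOC_007496 move from 375 and 300.2 to 673 and 575 when rescaled.

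Among the 10 pairs without hypothalamus, the loci differed in which were called, against 40.0% of all such tests over loci. XLOC_007496 had 1 call, adrenal gland over liver (1.59-fold, log2 difference 0.66 with SE 0.20, adjusted p = 0.026, limma, as deposited). It was lost when the columns were rescaled (adjusted p = 0.072) and without any 1 of liver column 1, cortex column 1, outer medulla column 1 or 2, left ventricle column 1 or adrenal gland column 1, with adjusted p from 0.0502 to 0.169. It was 1 of 2 calls without liver column 2 and without hypothalamus column 2. XLOC_007498 had 4 calls, liver over cortex (1.86-fold, adjusted p = 0.011) and outer medulla (1.71-fold, adjusted p = 0.021), and adrenal gland over cortex (1.87-fold, adjusted p = 0.0103) and outer medulla (1.72-fold, adjusted p = 0.021). These 4 were also called after rescaling, where 37.5% of such tests were called. Liver over cortex was lost without either cortex column, and liver over outer medulla without liver column 2 or either outer medulla column. Adrenal gland over cortex was lost without adrenal gland column 1, and adrenal gland over outer medulla without that column or either outer medulla column. The adjusted p was 0.0511 to 0.0968 in these cases.

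The single transcripts were tested in the same way among 1269 transcripts. TCONS_00012467 and TCONS_00012465 were each called lower in hypothalamus in 5 of 5 pairs as deposited, against 27.6% of all such tests over transcripts. As deposited, TCONS_00012465 was 5.48 to 9.05-fold lower in hypothalamus, and TCONS_00012467 was 1.80 to 3.39-fold lower. After rescaling the counts were 2 for TCONS_00012467 and 0 for TCONS_00012465, where 19.5% of such tests over transcripts were called. The rescaled log2 difference of TCONS_00012467 from hypothalamus was 0.21 for outer medulla, 0.31 for cortex, 0.81 for left ventricle and 0.82 for adrenal gland. Against liver it turned in sign, to -0.051 (adjusted p = 0.80, limma). The count for TCONS_00012465 fell to 1 without either hypothalamus column and to 0 without adrenal gland column 2 and hypothalamus column 1. TCONS_00012464 passed the FPKM minimum of 1 through its adrenal level alone. Its calls between tissues are therefore not read as results. TCONS_00012468 was under the minimum and was not tested.

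In the 10 other pairs, where 36.0% of all tests over transcripts were called, TCONS_00012467 was lower in liver than in adrenal gland (1.88-fold, log2 difference 0.91 with SE 0.18, adjusted p = 0.0038, limma). It was also lower in liver than in left ventricle (1.82-fold, adjusted p = 0.0055) and outer medulla (1.48-fold, adjusted p = 0.037). The call against left ventricle was lost without left ventricle column 1 (adjusted p = 0.064). The call against outer medulla was lost after rescaling (adjusted p = 0.15) and without any 1 column of liver, cortex, outer medulla or left ventricle or hypothalamus column 1. It was also lost with no FPKM minimum (adjusted p = 0.057) and without both adrenal gland column 2 and hypothalamus column 1 (adjusted p = 0.12). After rescaling TCONS_00012467 had 6 calls in the 10 pairs, where 33.5% of such tests were called. As deposited, the sum of XLOC_007496 was not called between liver and left ventricle (adjusted p = 0.054, limma) or outer medulla (adjusted p = 0.16). In liver TCONS_00012465, which overlaps TCONS_00012467, held 9.27 and 44.1% of that sum. How far the division of shared fragments enters the liver calls of TCONS_00012467 was not tested. TCONS_00012465 had 0 calls in these 10 pairs, and 3 and 2 without liver column 1 and liver column 2.

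The ratio of the loci does not depend on the scale of a column, and it was nearly equal in the columns of each tissue. The summed FPKM of XLOC_007496 was 16.7 and 15.9 times that of XLOC_007498 in liver. It was 26.3 and 25.0 times in adrenal gland and 31.3 and 31.8 times in hypothalamus. In outer medulla the ratios were 36.3 and 36.4, in cortex 36.4 and 34.8, and in left ventricle 35.3 in both columns. Liver lay below all other columns, adrenal gland above liver and below the rest, and hypothalamus below the 3 remaining tissues. The cortex columns spanned the ratios of outer medulla and left ventricle. The liver columns differed 1.40-fold in the level of XLOC_007496 and 1.48-fold in that of XLOC_007498, which is more than in this ratio. The columns of a tissue belong to 1 sample, so their closeness may be technical. An exact permutation of the 12 columns over tissues, chosen after the values were seen, gave p = 0.00087 (9 of 10395 arrangements). The same permutation for the share of start site TSS9630 in XLOC_007496 gave p = 0.46 (4833 of 10395 arrangements). Such a permutation measures only how close the columns of a tissue are, so no conclusion is drawn from either p. With TCONS_00012467 alone in the numerator, liver had 15.1 and 8.86 and the other tissues 20.5 to 32.4.

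**Figure D4:**
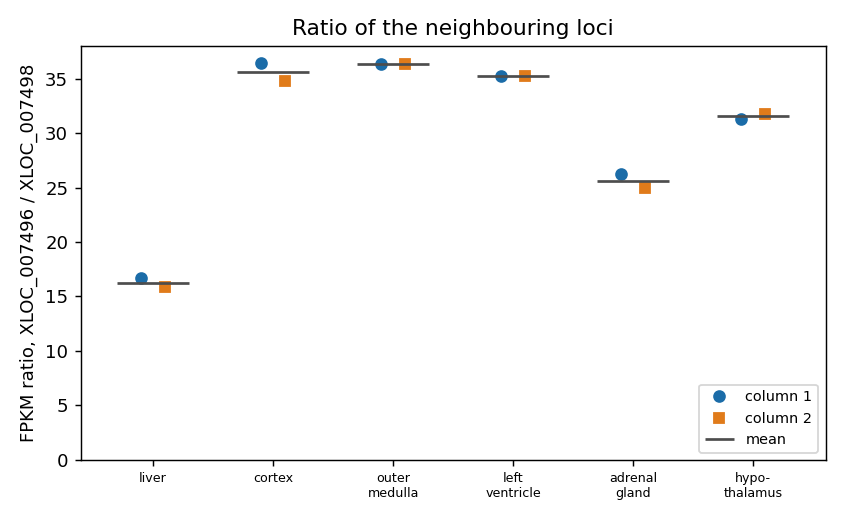
Ratio of the summed FPKM of XLOC_007496 to that of XLOC_007498 (vertical axis, linear) by tissue, with circles for column 1, squares for column 2 and a bar for the mean. Liver sits at 15.9 to 16.7, adrenal gland at 25.0 to 26.3, hypothalamus at 31.3 to 31.8, and the other 3 tissues at 34.8 to 36.4.

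The make-up of XLOC_007496 was then compared between tissues. Transcripts of 1 locus that overlap over most of their length share most of their fragments, so a program divides these by estimation, and the shares are less certain than the sum. TCONS_00012467 held 55.9 to 93.8% of the summed FPKM of the locus, and TCONS_00012464 and TCONS_00012468 together held under 0.2% in every column. The share of start site TSS9630 was 18.3 and 20.3% in outer medulla, 12.9 and 18.1% in adrenal gland, and 11.0 and 15.1% in cortex. It was 8.17 and 16.7% in left ventricle, 9.29 and 44.1% in liver, and 6.12 and 7.08% in hypothalamus. Both hypothalamus columns lay below the other 10, and both outer medulla columns lay above all others except liver column 2.

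Isoform balance, the log2 ratio of a transcript to the rest of its locus, was tested with limma's F test over the 6 tissues for 144 transcripts of loci at an FPKM of 1 or more in every tissue. Of all 144, 11.8% were called. The balance of TCONS_00012465 (adjusted p = 0.58), TCONS_00012467 (adjusted p = 0.64) and TCONS_00012464 (adjusted p = 0.21) did not pass. Without liver column 1 TCONS_00012465 and TCONS_00012467 passed (adjusted p = 0.039 for each), and without liver column 2 they did not. TCONS_00012468 passed (adjusted p = 0.024), with 0.00288 to 0.085 over the alternatives, and did not pass with column number as a replicate block (adjusted p = 0.058), without hypothalamus (0.081) or without any 1 column of outer medulla, left ventricle or hypothalamus. Where it was listed at 0, its balance is set by the added 0.1 and the level of the rest of the locus.

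In each of the 6 tissues the share of TCONS_00012465 was higher in column 2 than in column 1, and that of TCONS_00012467 lower. Of all 144 transcripts, 5 (3.47%) moved the same way between the columns in all 6 tissues, and these 2 were among them. Together they held nearly the whole locus, so a rise of 1 share is a fall of the other, and they are 1 observation. Whether 5 of 144 is more than random directions would give was not tested. The sources used here do not give what column numbers 1 and 2 stand for.

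**Figure D5:**
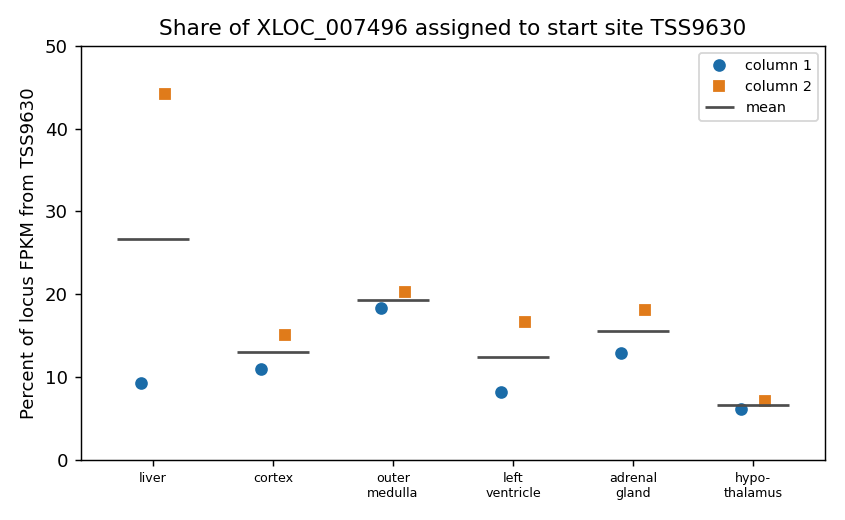
Percent of the summed FPKM of XLOC_007496 assigned to start site TSS9630 (vertical axis) by tissue, with circles for column 1, squares for column 2 and a bar for the mean. Column 2 lies above column 1 in each of the 6 tissues, from 6.12 and 7.08% in hypothalamus to 9.29 and 44.1% in liver.

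The distance between the columns of a tissue was compared with that of other transcripts. For TCONS_00012467, the absolute log2 ratio between columns was 0.211 in liver, 0.135 in cortex, 0.0071 in outer medulla, 0.222 in left ventricle, 0.426 in adrenal gland and 0.337 in hypothalamus. The medians over all transcripts with a mean of at least 1 FPKM were 0.716, 0.29, 0.246, 0.413, 0.428 and 0.27 in the same order. It was further apart than this median only in hypothalamus. Against transcripts with a mean of at least 10 FPKM, whose medians were 0.219 in left ventricle, 0.288 in adrenal gland and 0.268 in hypothalamus, it was further apart in these 3 tissues. TCONS_00012465 was further apart than the median of transcripts at 1 FPKM or more in liver (2.74), cortex (0.394) and left ventricle (0.944). Against transcripts at 10 FPKM or more, it was further apart in outer medulla as well (0.192, median 0.0716). It was closer than that median in adrenal gland (0.152, median 0.288) and hypothalamus (0.113, median 0.268).

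Of 57 transcripts outside XLOC_007496 at an FPKM of 1 or more in every tissue, the 5 whose pattern was most like that of TCONS_00012467 were named by Pearson's r over the 12 columns on log2(FPKM + 0.1). TCONS_00020438, which shares a splice junction with the chromatin remodelling gene Smarce1 (chromosome 10, 86912861 to 86934447), had r = 0.94 and ranged from 0.964 in hypothalamus column 2 to 2.74 in adrenal gland column 1. TCONS_00010204, which shares one with Chd2, another chromatin remodelling gene (chromosome 1, 135782014 to 135911815), had r = 0.93 and ranged from 1.27 to 4.33 in the same columns. TCONS_00109843, overlapping the zinc finger gene Zfp142, had r = 0.88, TCONS_00078285, with no reference gene, 0.82, and TCONS_00026914, overlapping Fry, 0.81. All 5 had their lowest value in a hypothalamus column. So did TCONS_00012467, and a choice by r with it favours such transcripts, so this is not a separate result. The median r over the 57 was 0.34. The points share the scale of each column, including the low hypothalamus columns.

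TCONS_00012470 ranked 10 of the 57, with r = 0.71, and r was -0.15 over the 10 columns without hypothalamus. Between TCONS_00012465 and TCONS_00012470 r was 0.84 over the 12 columns. Both were lowest in hypothalamus column 2 and highest in liver column 2, and r without hypothalamus was not computed for this pair. Of 25 known nuclear or abundant lncRNA genes listed for comparison, 2 had rows under their name. A row of a listed gene under another gene name, or under none, was not counted. The most abundant of the rows found, TCONS_00012142 at Mir675 (a microRNA that lies within H19), averaged 19.2 FPKM over tissues. The row at Snhg11, a small nucleolar RNA host gene, averaged 1.73.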

How the data were processed

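TRIzol was used for total RNA and the TruSeq Stranded RNA LT kit for the libraries, per the labels' protocols. Per the submitters' processing notes, the build was rn5 and the tools included bcl2fastq 2.15.0. The authors deposited FPKM per transcript, with transcript length in bases. The sources used here do not give the aligner, the estimating program, its annotation or its strand setting. From the table, 3 rows without values were left out. As no counts were given, depth was read from the steps between low FPKM values.

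The members and gene lists were chosen with earlier results of these data known. FPKM was summed per locus. On log2(FPKM + 0.1), limma 3.58.1 (R 4.3.3) was fitted with a trend over all 12 columns, for loci or transcripts whose mean reached an FPKM of 1 in some tissue. Fold changes are on this scale, so they understate changes of low transcripts. Isoform balance added 0.1 to both terms. p-values were adjusted by Benjamini-Hochberg. Named transcripts were the members, the nearest rows, the 5 most alike, the 3 most abundant others and the listed lncRNAs. Tests were checked on simulated data with independent columns, which cannot show how they behave if the 2 columns of a tissue are technical. No sequences are shown, since the members matched no entry of the sequence tables. Python 3.11.15, pandas 2.3.3, NumPy 2.4.6 and SciPy 1.17.1 were used.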

Additional observations from a re-analysis of the deposited data

How the results depend on the processing

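The alternatives were pseudocounts of 0.01 and 1, other FPKM minimums, rescaled columns, adjustment over all pairs together, a block for the column number, no hypothalamus columns, and each column left out in turn. Leaving out liver, or adrenal gland column 2 with hypothalamus column 1, was chosen after seeing the data. In none of the cases below was the cause tested, except that fewer columns were used where columns were left out. TCONS_00012464 passed the FPKM minimum through its adrenal level alone, so its counts below are not read as results.

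Rescaling gave 2 pairs lower in hypothalamus for XLOC_007496, 3 for XLOC_007498, 2 for TCONS_00012467 and 0 for TCONS_00012465. It gave 0 other pairs for XLOC_007496 and 6 for TCONS_00012467, and reversed the liver to hypothalamus difference of TCONS_00012467 (log2 -0.051, adjusted p = 0.80, limma). Other pairs called for XLOC_007496 were 2 with a pseudocount of 1 or an FPKM minimum of 5, and 0 without liver or without adrenal gland column 2 and hypothalamus column 1. TCONS_00012467 had 0 other pairs without liver. TCONS_00012464 had 2 pairs lower in hypothalamus with a pseudocount of 1, 1 of each kind without liver, and 0 other pairs without adrenal gland column 2 and hypothalamus column 1, where TCONS_00012465 had 0 lower in hypothalamus.

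Of the 4 transcripts of the locus, isoform balance was called for 2 with a pseudocount of 1 and for 0 without hypothalamus. With column number as a replicate block, isoform balance was called for 0, and TCONS_00012467 had 5 other pairs. The block changed no other count by over 1.5 times. The labels give no replicate numbers, and column differences correlated over 0.1 in 5 of 15 tissue pairs. They correlated at 0.83 between cortex and hypothalamus and at 0.33 to 0.71 among outer medulla, left ventricle and adrenal gland, but at -0.52 to -0.23 between these sets, so the numbers were not taken to pair all tissues.

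With each column left out in turn, both loci and TCONS_00012467 had 5 pairs lower in hypothalamus, TCONS_00012465 had 1 to 5 and TCONS_00012464 had 0 to 1. Other pairs ranged from 0 to 2 for XLOC_007496, 2 to 6 for XLOC_007498, 1 to 4 for TCONS_00012467 and TCONS_00012464, and 0 to 3 for TCONS_00012465. Isoform balance was called for 0 to 3. The share of summed FPKM held by XLOC_007496 was 10.4 to 12.1% in liver, 13.4 to 24.6% in cortex, 32.5 to 32.9% in outer medulla, 32.0 to 32.3% in left ventricle, 23.0 to 26.1% in adrenal gland and 8.41 to 12.6% in hypothalamus. Weighted by length, these shares were 43.8, 55.9, 65.2, 69.3, 65.8 and 44.1%, and without the most abundant other transcript 14.8, 27.0, 34.3, 39.9, 32.7 and 15.7%. Depth limits TCONS_00012464 and TCONS_00012468 in liver column 2 most.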
